A study of Homo sapiens with 12 samples.

Results

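Mitosis and kinetochore genes were followed across 4 conditions in MCF10A, a human breast epithelial cell line that does not form tumours. The set was a list of 54 gene symbols, of which 53 were measured among 18417 genes tested. Each gene was read by the probe set that named it alone and had the highest mean over the 12 arrays. CENPA, the histone variant that marks centromeres, was listed but not measured, because its only probe set also named another gene. By role, the measured genes were 10 cyclins and kinases, 8 genes of the spindle checkpoint and of anaphase control, 7 of the kinetochore and centromere, 9 kinesin motors, 11 of the spindle and cytokinesis, 6 of chromosome structure and 2 transcription factors.

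All 4 groups were the same MCF10A-HER2-FKBP-HA line, which stably carries a full-length human HER2 chimera with FKBP and HA tags, and each group held 3 arrays. Untreated cells received no ligand. AP1510, a synthetic bivalent compound that brings FKBP-tagged receptors together, was given to pair the chimera with itself. Heregulin binds HER3 and HER4, and TGF-alpha binds EGFR. The maintenance medium, DMEM/F12, held EGF (20 ng/ml) and horse serum (5%), and in every group both were left out from 24 hours before ligand. Insulin (10 µg/ml), hydrocortisone (500 ng/ml) and cholera toxin (100 ng/ml) stayed in the medium of every group. RNA was taken 48 hours after ligand from 100 mm dishes seeded in triplicate. The cells keep ErbB receptors of their own, and the sources used here do not say whether the line is 1 clone or a pool. They give no ligand dose, vehicle control or harvest time of the untreated dishes, so time in culture and treatment cannot be told apart in comparisons with untreated cells. All dishes came from this 1 line, so p-values measure only the spread between dishes.

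Entry into mitosis is driven by CDK1 bound to cyclin A or cyclin B, and Polo and Aurora kinases organise the spindle poles and the attachment of chromosomes. The kinetochore is the protein assembly on the centromere that grips microtubules, and the spindle checkpoint holds back the anaphase-promoting complex until every kinetochore is attached. Separase then cuts cohesin, kinesins and bundling proteins build the midzone, and the cell divides. Transcripts of these genes are low in resting cells and accumulate late in the cell cycle under FOXM1, B-MYB and the MuvB complex, so the set is widely used as a readout of proliferation. MCF10A cells depend on an EGFR ligand to proliferate in culture.

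Many of these genes share 2 sequence elements near their start. The cell-cycle genes homology region, CHR, is a short element known as a contact of MuvB, and the CCAAT box is bound by the factor NF-Y. Both were searched as letters on both strands in RefSeq promoters of GRCh38.p14, from 250 bases before to 50 bases after each start, with TTTGAA or TTCGAA taken as CHR and CCAAT as the box. TTCGAA reads the same on both strands and was counted once. The table held promoters for 48 of the 54 genes, 57 promoters in all on 17 chromosomes, with several starts for 7 genes, whose windows can overlap. TTK, BIRC5, TPX2, AURKA, FOXM1 and PBK had none.

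CHR letters stood in 38 of the 57 promoters (66.7%), against 16.4% of the 35116 promoters in the table. A CCAAT box stood in 39 (68.4%), against 34.6%, and at least 2 boxes in 22 (38.6%), against 10.8%. Both elements together stood in 29 (50.9%), against 6.38%. E2F letters, searched as TTTCCCGC, TTTCGCGC, TTTGCCGC or TTTGGCGC, stood in 5 (8.77%), against 3.31%. By role, CHR letters stood in 9 of 11 promoters of spindle and cytokinesis genes, 7 of 9 of kinesin motors, 6 of 8 of checkpoint and anaphase genes, 5 of 8 of kinetochore genes, 5 of 8 of chromosome structure genes and 6 of 12 of cyclins and kinases. A match is a description and not a site or a cause, and a window without the letters says nothing of the factors.

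The 130 bases before the start are shown for 8 members, 1 or 2 from each role except the transcription factors, to set promoters with both elements beside those with 1. Capitals mark CHR letters and CCAAT boxes on either strand, and each run is printed 5′ to 3′ along the gene's strand. CCNB2 lies on the plus strand at chr15:59105016-59105145, PLK1 on the plus strand at chr16:23678759-23678888, CDC20 on the plus strand at chr1:43358851-43358980 and CENPK on the minus strand at chr5:65563169-65563298. KIF23 lies on the plus strand at chr15:69414219-69414348, PRC1 on the minus strand at chr15:90994536-90994665, MKI67 on the minus strand at chr10:128126424-128126553 and SMC4 on the plus strand at chr3:160399520-160399649, all in GRCh38.p14.
CCNB2: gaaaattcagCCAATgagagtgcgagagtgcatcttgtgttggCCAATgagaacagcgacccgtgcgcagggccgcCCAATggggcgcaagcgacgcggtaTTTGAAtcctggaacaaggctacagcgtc
PLK1: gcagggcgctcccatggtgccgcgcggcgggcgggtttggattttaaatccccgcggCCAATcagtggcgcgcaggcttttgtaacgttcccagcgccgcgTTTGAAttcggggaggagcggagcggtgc
CDC20: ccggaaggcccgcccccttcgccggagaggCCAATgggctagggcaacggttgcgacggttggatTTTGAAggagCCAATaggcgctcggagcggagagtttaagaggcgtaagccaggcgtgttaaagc
CENPK: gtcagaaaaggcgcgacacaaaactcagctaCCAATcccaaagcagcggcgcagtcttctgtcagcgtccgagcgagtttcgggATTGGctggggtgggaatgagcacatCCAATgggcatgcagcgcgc
KIF23: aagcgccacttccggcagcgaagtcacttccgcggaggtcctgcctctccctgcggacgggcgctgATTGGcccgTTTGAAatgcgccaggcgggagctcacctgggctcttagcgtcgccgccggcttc
PRC1: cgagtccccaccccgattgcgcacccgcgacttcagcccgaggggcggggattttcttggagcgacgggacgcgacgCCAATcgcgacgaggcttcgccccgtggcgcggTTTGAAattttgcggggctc
MKI67: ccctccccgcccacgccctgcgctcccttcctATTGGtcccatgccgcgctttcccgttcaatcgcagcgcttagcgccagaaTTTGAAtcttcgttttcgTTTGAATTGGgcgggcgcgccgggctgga
SMC4: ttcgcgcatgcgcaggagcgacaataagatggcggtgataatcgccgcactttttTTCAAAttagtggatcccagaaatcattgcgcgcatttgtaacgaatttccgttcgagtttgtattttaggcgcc

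CCNB2 carried 3 CCAAT boxes in this stretch and a CHR 29 bases before its start, and PLK1 a single box with a CHR at the same distance. In CDC20 the CHR lay between 2 boxes, and in KIF23 it followed a box read on the other strand. MKI67 carried 2 CHR copies, the second of which shared 1 base with a box on the other strand. CENPK carried 3 boxes and no CHR letters, and SMC4 a CHR on the other strand and no box.

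Levels are log2 intensities, which are comparable between arrays for 1 gene but not between genes. A change is a difference between group means on this scale, with the SE of the fit (3 arrays a group), and a gene rose, fell or passed where its adjusted p was under 0.05. Each test was refitted 12 times, each time without 1 array. Array medians over all probe sets lay between 5.33 and 5.44, and the median difference of all genes from the untreated mean stayed within 0.022 of 0 on each array. Of 10 basal mammary epithelial markers, 6 were measured and all 6 lay above the median probe set at 5.37, with KRT5 at 12.1. Of 6 measured leukocyte markers, 2 lay above it, CD68 at 7.75 and CD79A at 5.46, and 4 below, among them PTPRC at 2.98 and LYZ at 2.95. The summed level of the 6 basal markers was 58.1 to 58.5 in untreated dishes, 59.2 to 59.5 with AP1510, 59.5 to 59.9 with heregulin and 62.1 to 62.6 with TGF-alpha, where 5 rose and CDH3 fell (-0.44 ± 0.09, adjusted p = 0.0011). Of 9 luminal markers, KRT8 and KRT18 rose and GATA3, FOXA1 and KRT19 fell with TGF-alpha, from -0.84 ± 0.14 for FOXA1 (adjusted p = 0.00019) to 0.91 ± 0.09 for KRT18 (adjusted p = 6.2e-07), and the sum was 59.1 to 60.2 untreated and 58.4 to 59.7 with TGF-alpha. Of 7 fibroblast markers DCN alone passed, -0.80 ± 0.13 with TGF-alpha (adjusted p = 0.00018) and 1.59 ± 0.13 with heregulin (adjusted p = 9.1e-07), and their sum was 35.3 to 36.1 untreated, 35.2 to 36.0 with AP1510, 34.5 to 34.7 with TGF-alpha and 37.0 to 38.4 with heregulin. Among leukocyte markers CD68 alone passed (-0.80 ± 0.10 with TGF-alpha, adjusted p = 2.1e-05), and among 6 endothelial markers KDR rose and CDH5 fell with TGF-alpha and heregulin and PECAM1 fell with heregulin. The part of these markers in the changes below was not tested. AP1510 replicate 1 and heregulin replicates 2 and 3 stood apart from their groups in the genes followed here. Counts, and medians against untreated cells, that moved by over 1.5 times without 1 of them are therefore also given without it. RNA came from whole dishes, so a higher level per cell and more cells in mitosis cannot be told apart.

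Mitosis genes were highest with TGF-alpha in every case, and all 53 were above untreated cells by an adjusted p under 0.05 in limma, against 12.5% of all genes. Their log2 changes had a median of 1.52 and ran from 0.85 for AURKB to 1.96 for PBK, and 52 of the 53 rose at least 2-fold. With AP1510 31 rose and 22 did not pass in limma, against 0.771% of all genes called higher, with a median change of 0.60 and 0 genes at 2-fold or more. None fell (0.7% of all genes did), at an unadjusted p under 0.05 either, where 52 were higher. With heregulin 14 rose and 39 did not pass, against 3.45% called higher, with a median of 0.28. Again none fell in limma (5.06% of all genes did), also at an unadjusted p under 0.05, where 29 were higher. Shares of all genes at 2-fold or more, or at an unadjusted p under 0.05, were not counted. Counts at those cuts therefore have no background, here or below. The median over all genes lay near 0 in each comparison, and the 3 comparisons share the same 3 untreated arrays. In all, 53 differed among the 4 groups in the F test, against 28.5% of all genes.

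**Figure D1:**
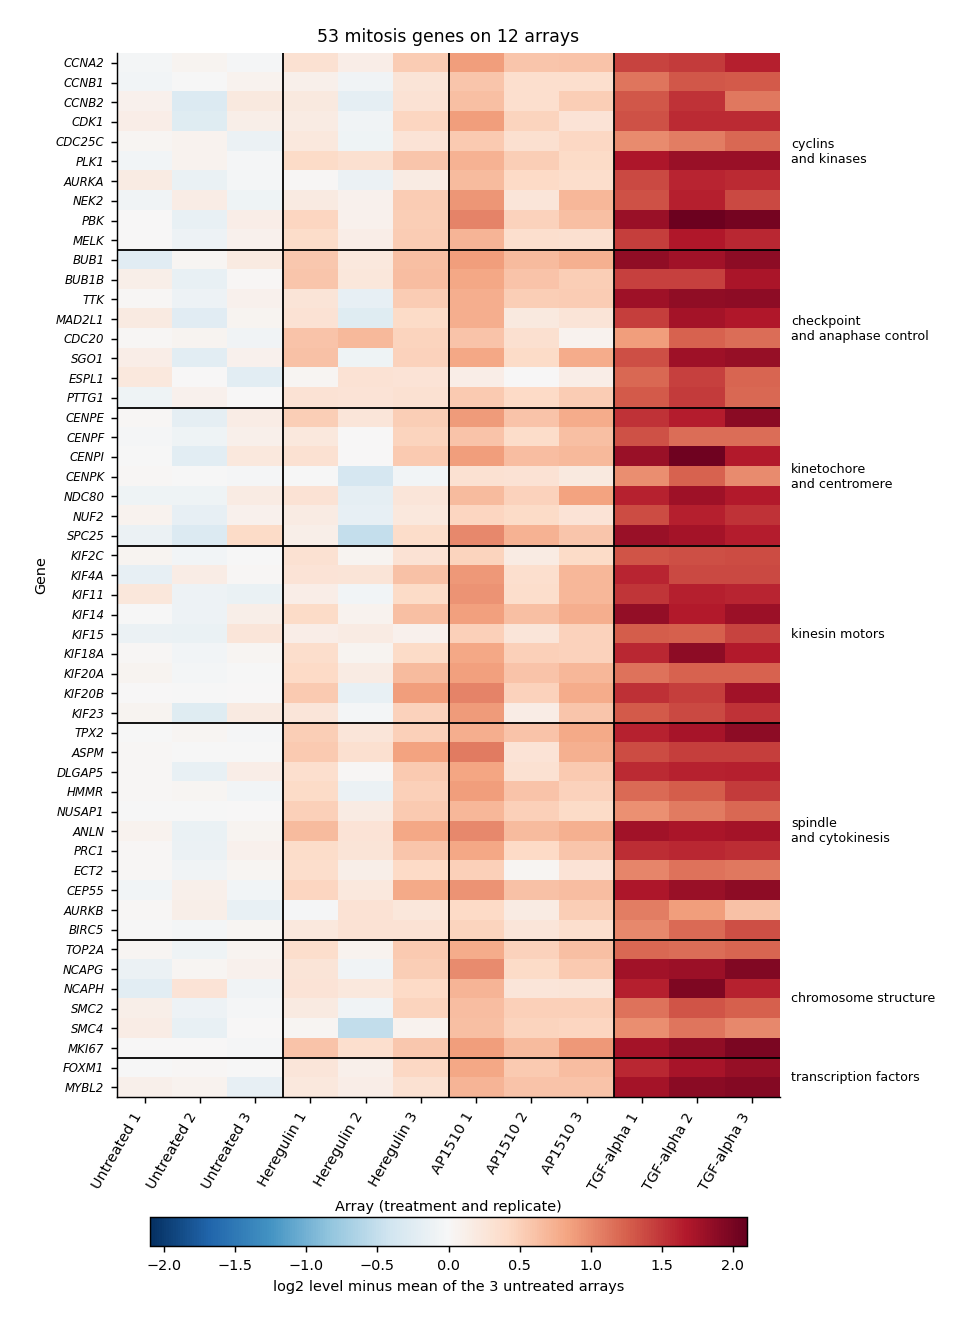
Log2 level of each of the 53 measured genes on each of the 12 arrays, as the difference from the mean of the 3 untreated arrays, in rows by role and columns by treatment and replicate. The 3 TGF-alpha columns are the darkest throughout, AP1510 replicate 1 is darker than replicates 2 and 3, and heregulin replicate 2 is the palest treated column.

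The group means ran in the order untreated, heregulin, AP1510, TGF-alpha in 47 of the 53 genes, an order held by 5.33% of all genes. CDC20, ESPL1 and ECT2 had a higher mean with heregulin than with AP1510. SPC25, CENPK and SMC4 had a lower mean with heregulin than in untreated cells. None of these 6 steps out of order passed in limma. All 3 AP1510 arrays lay above all 3 untreated arrays for 49 genes (7.36% of all genes), all 3 TGF-alpha arrays for 53 (19.4%) and all 3 heregulin arrays for 23 (10.5%).

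**Figure D2:**
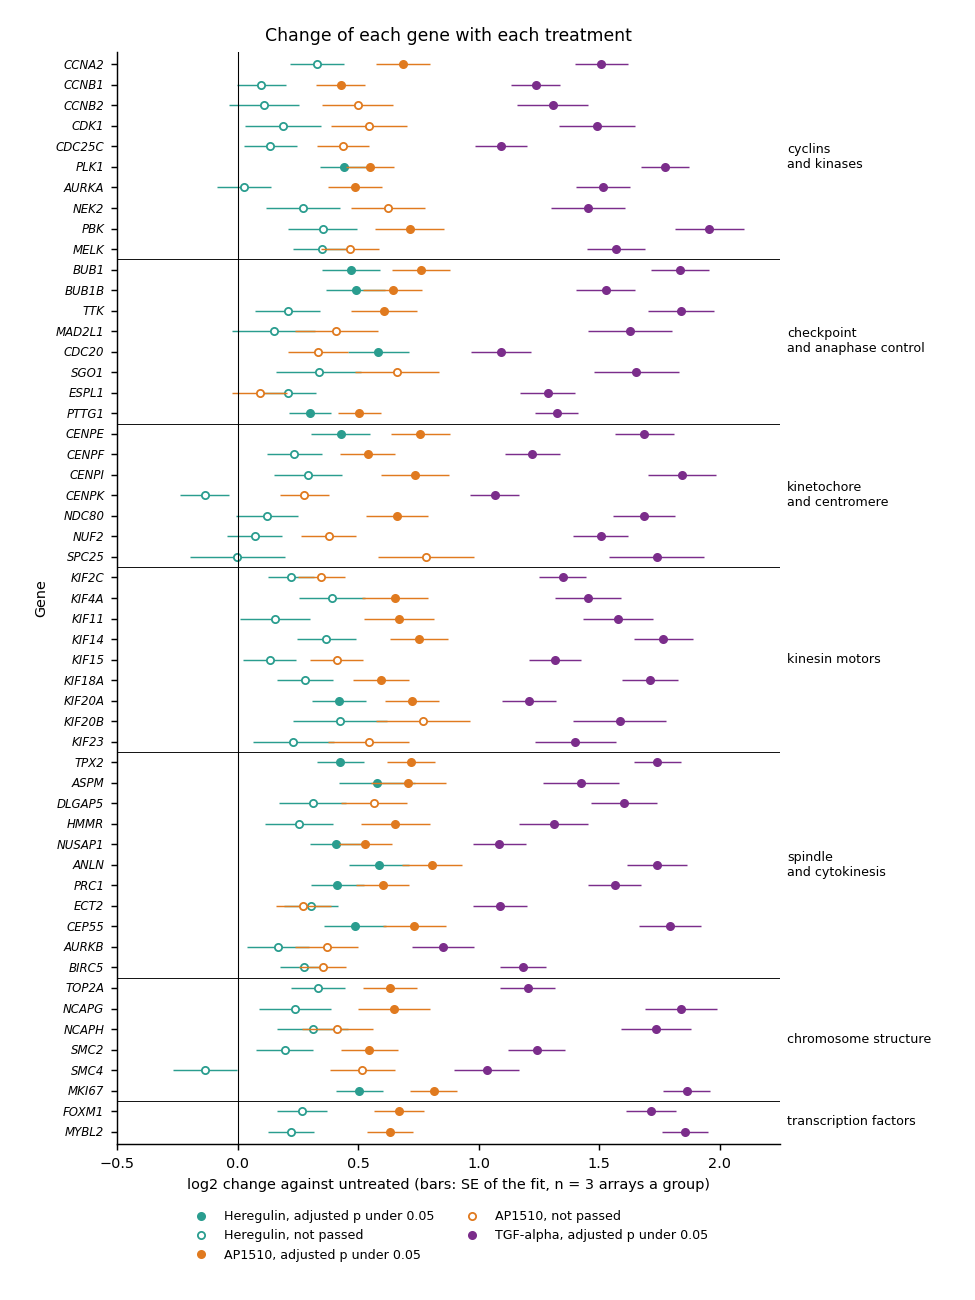
Log2 change of each gene against untreated cells for heregulin, AP1510 and TGF-alpha, with bars of 1 SE from the fit and 3 arrays a group. Filled points passed at an adjusted p under 0.05: all 53 TGF-alpha points are filled and lie to the right, and 31 AP1510 and 14 heregulin points are filled.

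Cyclins and kinases rose with TGF-alpha in 10 of 10 cases, with a median change of 1.50. With AP1510 5 of 10 rose, CCNA2, CCNB1, PLK1, AURKA and PBK, with a median of 0.52. With heregulin only PLK1 rose, with a median of 0.23. CCNA2 (probe set 8102643), which encodes cyclin A2, read 7.76, 7.85 and 7.78 in untreated dishes, 8.12, 7.93 and 8.33 with heregulin, 8.68, 8.37 and 8.40 with AP1510 and 9.22, 9.27 and 9.43 with TGF-alpha. The AP1510 dishes lay between the other treatments with no overlap, and heregulin lay above untreated on every array. CCNA2 changed by 1.51 ± 0.11 (adjusted p = 4.7e-08) with TGF-alpha and 0.69 ± 0.11 (adjusted p = 0.0051) with AP1510, and its difference of 0.33 ± 0.11 (adjusted p = 0.084) with heregulin did not pass. The cyclin B1 gene CCNB1 (probe set 8105828) stood at 9.03, 9.08 and 9.15 in untreated dishes, 9.19, 9.02 and 9.35 with heregulin, 9.67, 9.45 and 9.43 with AP1510 and 10.21, 10.39 and 10.38 with TGF-alpha. Its AP1510 change was 0.43 ± 0.10 (adjusted p = 0.048) and its TGF-alpha change 1.24 ± 0.10 (adjusted p = 1.5e-07), and its heregulin arrays overlapped the untreated ones (0.10 ± 0.10, adjusted p = 0.66). CCNB2 (probe set 7983969), which encodes cyclin B2 and whose promoter is shown above, measured 7.74, 7.36 and 7.85 in untreated dishes, 7.86, 7.47 and 7.95 with heregulin, 8.28, 8.01 and 8.17 with AP1510 and 8.95, 9.17 and 8.76 with TGF-alpha. Untreated replicate 2 was low, and neither AP1510 (0.50 ± 0.15, adjusted p = 0.13) nor heregulin (0.11 ± 0.15, adjusted p = 0.75) passed, against 1.31 ± 0.15 with TGF-alpha (adjusted p = 4.1e-06).

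PBK, a mitotic kinase, had the largest TGF-alpha change of all 53 genes and CDC25C, the phosphatase that activates CDK1, the smallest among cyclins and kinases. PBK (probe set 8149955) read 7.67, 7.52 and 7.81 in untreated dishes, 8.12, 7.75 and 8.18 with heregulin, 8.70, 8.14 and 8.29 with AP1510 and 9.47, 9.72 and 9.67 with TGF-alpha. The TGF-alpha arrays stood clear of all others, heregulin overlapped both untreated and AP1510, and AP1510 replicate 1 lay well above replicates 2 and 3. The rise was 3.88-fold for TGF-alpha (adjusted p = 4.4e-08) and 1.64-fold for AP1510 (adjusted p = 0.018). CDC25C (probe set 8114425) read 6.37, 6.40 and 6.20 in untreated dishes, 6.54, 6.23 and 6.61 with heregulin, 6.87, 6.66 and 6.75 with AP1510 and 7.31, 7.40 and 7.53 with TGF-alpha. With TGF-alpha it was 2.13-fold higher (adjusted p = 1.1e-06), and its AP1510 difference of 0.44 ± 0.11 just missed the threshold (adjusted p = 0.06) although no AP1510 array overlapped an untreated one. CDK1 (probe set 7927710), the kinase that cyclins A and B activate, read 6.0, 5.61 and 5.97 in untreated dishes, 6.04, 5.79 and 6.32 with heregulin, 6.74, 6.33 and 6.14 with AP1510 and 7.20, 7.43 and 7.42 with TGF-alpha. Its untreated and AP1510 dishes spread widely, and CDK1 changed by 0.54 ± 0.16 (adjusted p = 0.12) with AP1510 against 1.49 ± 0.16 (adjusted p = 2.2e-06) with TGF-alpha.

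PLK1 (probe set 7994109), the Polo kinase of spindle assembly, was the 1 gene of this role that rose with all 3 treatments. It read 8.18, 8.31 and 8.22 in untreated dishes, 8.64, 8.57 and 8.82 with heregulin, 8.96, 8.76 and 8.64 with AP1510 and 9.93, 10.05 and 10.04 with TGF-alpha. Each treated group lay above untreated on every array, heregulin and AP1510 overlapped, and TGF-alpha lay well above both. Its changes were 0.44 ± 0.10 (adjusted p = 0.0097) with heregulin, 0.55 ± 0.10 (adjusted p = 0.01) with AP1510 and 1.77 ± 0.10 (adjusted p = 3.3e-09) with TGF-alpha. AURKA, the Aurora kinase of the spindle poles, rose with AP1510 (0.49 ± 0.11, adjusted p = 0.04) and differed by 0.03 ± 0.11 with heregulin (adjusted p = 0.93). NEK2 at 0.63 ± 0.15 (adjusted p = 0.059) and MELK at 0.47 ± 0.12 (adjusted p = 0.073) did not pass with AP1510. CCNA2 alone among the 5 kept its AP1510 call whichever array was left out. The others missed it in 2 (PLK1), 3 (PBK), 7 (AURKA) and 10 (CCNB1) of the 12 refits, with highest adjusted p-values of 0.063, 0.099, 0.2 and 0.23 without AP1510 replicate 1. The heregulin call of PLK1 ended without heregulin replicate 3 (adjusted p = 0.052).

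**Figure D3:**
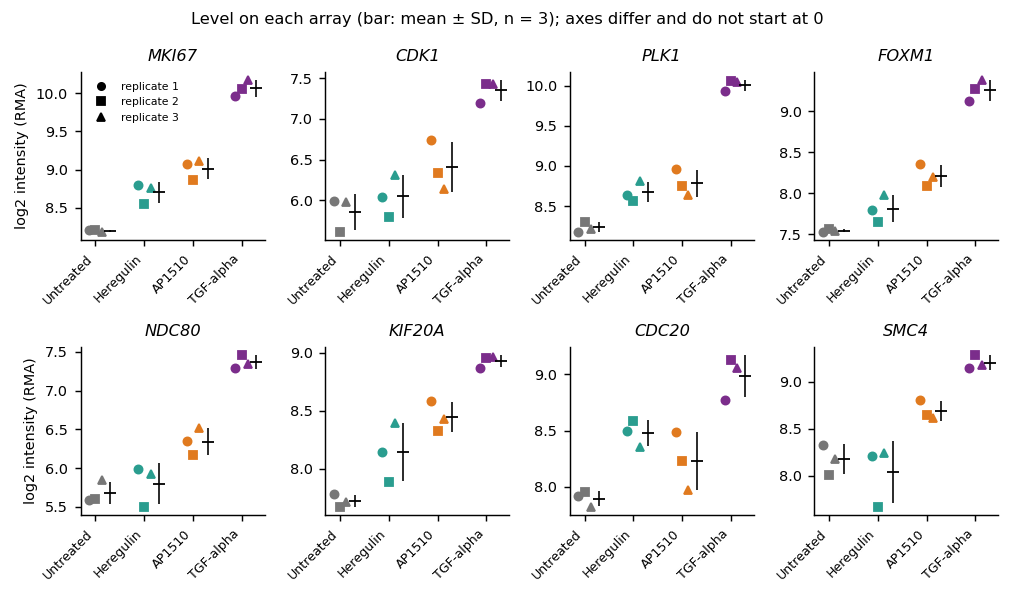
Log2 intensity of MKI67, CDK1, PLK1, FOXM1, NDC80, KIF20A, CDC20 and SMC4 on each array, by treatment, with the mean and SD of 3 arrays beside the points; axes differ between genes and do not start at 0. TGF-alpha is highest in each panel, heregulin exceeds AP1510 in the mean only for CDC20, and SMC4 is the panel in which the heregulin mean lies below untreated.

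Genes of the spindle checkpoint and of anaphase control rose with TGF-alpha in 8 of 8 cases, with a median change of 1.58. With AP1510 BUB1, BUB1B, TTK and PTTG1 rose (median over the 8 genes 0.56), and with heregulin BUB1, BUB1B, CDC20 and PTTG1 rose (median 0.32). BUB1 (probe set 8054580), a checkpoint kinase of the kinetochore, read 6.62, 6.90 and 7.04 in untreated dishes, 7.42, 7.07 and 7.48 with heregulin, 7.73, 7.51 and 7.60 with AP1510 and 8.71, 8.62 and 8.73 with TGF-alpha. All treated dishes lay above all untreated ones, and heregulin lay below AP1510 without overlap. BUB1 rose by 0.47 ± 0.12 (adjusted p = 0.022) with heregulin, 0.76 ± 0.12 (adjusted p = 0.0045) with AP1510 and 1.83 ± 0.12 (adjusted p = 1.7e-08) with TGF-alpha. BUB1B (probe set 7982663), which encodes the checkpoint protein BUBR1, stood at 6.59, 6.31 and 6.48 in untreated dishes, 7.04, 6.70 and 7.11 with heregulin, 7.28, 7.05 and 6.98 with AP1510 and 7.89, 7.90 and 8.17 with TGF-alpha. Its heregulin and AP1510 arrays overlapped, at changes of 0.49 ± 0.12 (adjusted p = 0.019) and 0.64 ± 0.12 (adjusted p = 0.014), below 1.53 ± 0.12 (adjusted p = 1.2e-07) with TGF-alpha.

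TTK (probe set 8120838), the kinase MPS1 that starts checkpoint signalling, read 5.91, 5.78 and 5.98 in untreated dishes, 6.15, 5.73 and 6.42 with heregulin, 6.66, 6.41 and 6.43 with AP1510 and 7.67, 7.75 and 7.78 with TGF-alpha. The heregulin dishes spread widely, from below the lowest untreated dish to the level of AP1510 replicate 2, giving 0.21 ± 0.14 (adjusted p = 0.44), against 0.61 ± 0.14 (adjusted p = 0.036) with AP1510 and 1.84 ± 0.14 (adjusted p = 4.8e-08) with TGF-alpha, the largest TGF-alpha change of this role. CDC20 (probe set 7900699), which activates the anaphase-promoting complex and is the checkpoint's target, read 7.92, 7.95 and 7.82 in untreated dishes, 8.50, 8.58 and 8.36 with heregulin, 8.49, 8.23 and 7.97 with AP1510 and 8.77, 9.13 and 9.06 with TGF-alpha. All 3 heregulin arrays lay above AP1510 replicates 2 and 3, and replicate 1 of AP1510 lay among them. It rose by 0.58 ± 0.13 (adjusted p = 0.007) with heregulin and 1.09 ± 0.13 (adjusted p = 5.2e-06) with TGF-alpha, whereas its 0.33 ± 0.13 (adjusted p = 0.28) with AP1510 did not pass. The difference between heregulin and AP1510, 0.25 ± 0.13, did not pass (adjusted p = 0.28, 95% interval -0.02 to 0.52).

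ESPL1 (probe set 7955736), which encodes separase, read 5.70, 5.48 and 5.27 in untreated dishes, 5.52, 5.79 and 5.78 with heregulin, 5.62, 5.48 and 5.62 with AP1510 and 6.69, 6.92 and 6.70 with TGF-alpha. Its AP1510 arrays fell inside the untreated range, and its change of 0.09 ± 0.12 (adjusted p = 0.87) was the smallest of all 53 genes, against 1.29 ± 0.12 (adjusted p = 3.7e-07) with TGF-alpha. The difference between TGF-alpha and AP1510 was 1.19 ± 0.12 (adjusted p = 1.6e-06). PTTG1, which encodes securin, the inhibitor of separase, rose by 0.30 ± 0.09 (adjusted p = 0.048) with heregulin and 0.51 ± 0.09 (adjusted p = 0.0088) with AP1510. PTTG1 has near-identical relatives that its probes may also read, which was not tested. MAD2L1, the checkpoint protein MAD2, stood at 0.41 ± 0.17 with AP1510 (adjusted p = 0.36) and SGO1, the protector of centromeric cohesin, at 0.66 ± 0.18 (adjusted p = 0.083). BUB1 with AP1510 and CDC20 with heregulin kept their calls whichever array was left out. With AP1510, BUB1B, TTK and PTTG1 missed it in 3, 9 and 2 of the 12 refits, with adjusted p up to 0.088 and 0.18 without AP1510 replicate 1 and 0.058 without untreated replicate 1. With heregulin, BUB1, BUB1B and PTTG1 missed it in 3, 4 and 10, with adjusted p up to 0.12 and 0.19 without untreated replicate 1 and 0.087 without heregulin replicate 3.

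Kinetochore and centromere genes rose with TGF-alpha in 7 of 7 cases, with a median change of 1.69. With AP1510 CENPE, CENPF, CENPI and NDC80 rose (median over the 7 genes 0.66). With heregulin CENPE alone rose (median 0.12, but 0.27 without heregulin replicate 2 and 0.06 without replicate 3), and the role held 3 of the 8 genes that were lower with heregulin than with AP1510. CENPE (probe set 8102076), the kinetochore motor that carries chromosomes to the spindle equator, read 4.46, 4.25 and 4.58 in untreated dishes, 4.94, 4.68 and 4.94 with heregulin, 5.32, 5.02 and 5.21 with AP1510 and 5.95, 6.08 and 6.33 with TGF-alpha. Its 4 groups did not overlap, and it changed by 0.43 ± 0.12 (adjusted p = 0.039) with heregulin, 0.76 ± 0.12 (adjusted p = 0.005) with AP1510 and 1.69 ± 0.12 (adjusted p = 4e-08) with TGF-alpha. CENPF (probe set 7909708), a large protein of the outer kinetochore, stood at 7.91, 7.85 and 8.04 in untreated dishes, 8.16, 7.95 and 8.41 with heregulin, 8.54, 8.32 and 8.57 with AP1510 and 9.27, 9.10 and 9.10 with TGF-alpha. Heregulin replicate 3 lay among the AP1510 dishes and replicate 2 among the untreated ones, so the heregulin difference was 0.24 ± 0.11 (adjusted p = 0.26), against 0.54 ± 0.11 (adjusted p = 0.026) with AP1510 and 1.22 ± 0.11 (adjusted p = 5.5e-07) with TGF-alpha.

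CENPI (probe set 8168794), of the inner kinetochore, read 5.27, 5.06 and 5.49 in untreated dishes, 5.59, 5.28 and 5.82 with heregulin, 6.15, 5.91 and 5.96 with AP1510 and 7.09, 7.32 and 6.94 with TGF-alpha. The heregulin dishes overlapped untreated and stayed below AP1510. CENPI had the largest TGF-alpha change of the role, 1.84 ± 0.14 (adjusted p = 7.2e-08), and 0.74 ± 0.14 (adjusted p = 0.015) with AP1510. CENPK (probe set 8112376), a neighbour of CENPI in the inner kinetochore, read 5.70, 5.67 and 5.65 in untreated dishes, 5.67, 5.33 and 5.62 with heregulin, 6.0, 5.98 and 5.88 with AP1510 and 6.66, 6.91 and 6.66 with TGF-alpha. The untreated dishes were close together, and heregulin overlapped them or lay below (-0.14 ± 0.10, adjusted p = 0.51), AP1510 slightly above (0.28 ± 0.10, adjusted p = 0.26), and TGF-alpha 1.07 ± 0.10 above (adjusted p = 7.1e-07). Between the treatments, CENPK was lower with heregulin than with AP1510, at -0.41 ± 0.10 (adjusted p = 0.02), a direct comparison that passed although neither step from untreated did.

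NDC80, NUF2 and SPC25 encode 3 subunits of the NDC80 complex, the rod that binds microtubules. NDC80 (probe set 8019857) read 5.59, 5.60 and 5.85 in untreated dishes, 5.98, 5.49 and 5.93 with heregulin, 6.35, 6.16 and 6.52 with AP1510 and 7.29, 7.47 and 7.34 with TGF-alpha, so its heregulin arrays overlapped untreated while its AP1510 arrays lay above both. SPC25 (probe set 8056572) read 4.89, 4.74 and 5.43 in untreated dishes, 5.14, 4.51 and 5.41 with heregulin, 6.04, 5.76 and 5.61 with AP1510 and 6.83, 6.77 and 6.67 with TGF-alpha. Heregulin replicate 2 was the lowest and untreated replicate 3 the highest of the untreated and heregulin dishes, and their means were the same to 2 decimals, 5.02 ± 0.36 and 5.02 ± 0.46 (SD, n = 3). SPC25 had the largest AP1510 change of the role yet did not pass (0.78 ± 0.20, adjusted p = 0.068), and NUF2 was at 0.38 ± 0.11 (adjusted p = 0.15). Heregulin against AP1510 gave -0.54 ± 0.13 (adjusted p = 0.016) for NDC80 and -0.78 ± 0.20 (adjusted p = 0.024) for SPC25, and TGF-alpha against untreated 1.69 ± 0.13, 1.51 ± 0.11 and 1.74 ± 0.20 for the 3 subunits. With AP1510, CENPE kept its call whichever array was left out, CENPF and CENPI lost it in 4 and 3 of the 12 refits (adjusted p up to 0.12 and 0.087, without AP1510 replicate 1) and NDC80 in 4 (adjusted p up to 0.079, without untreated replicate 1). The heregulin call of CENPE ended in 6 refits, with adjusted p up to 0.16 without untreated replicate 2.

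Kinesin motors rose with TGF-alpha in 9 of 9 cases, with a median change of 1.46. With AP1510 KIF4A, KIF11, KIF14, KIF18A and KIF20A rose (median over the 9 genes 0.65), and with heregulin KIF20A alone (median 0.28). KIF2C (probe set 7901010), which encodes MCAK, a kinesin that takes microtubules apart, read 6.32, 6.21 and 6.25 in untreated dishes, 6.58, 6.31 and 6.55 with heregulin, 6.73, 6.43 and 6.65 with AP1510 and 7.58, 7.62 and 7.62 with TGF-alpha. The heregulin and AP1510 dishes overlapped, and the TGF-alpha dishes were nearly equal. The AP1510 change was the smallest of the motors and did not pass (0.35 ± 0.10, adjusted p = 0.1), against 1.35 ± 0.10 (adjusted p = 4e-08) with TGF-alpha. KIF4A (probe set 8168146), a chromokinesin of the midzone, stood at 6.30, 6.63 and 6.50 in untreated dishes, 6.76, 6.75 and 7.09 with heregulin, 7.39, 6.83 and 7.17 with AP1510 and 8.07, 7.86 and 7.86 with TGF-alpha. AP1510 replicate 2 lay among the heregulin dishes and replicate 1 well above them. KIF4A changed by 0.65 ± 0.14 (adjusted p = 0.025) with AP1510 and 1.46 ± 0.14 (adjusted p = 6.3e-07) with TGF-alpha. A near-identical copy, KIF4B, shares another probe set with it, and how far the probe set used also reads that copy was not tested.

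KIF11 (probe set 7929258), the motor Eg5 that pushes spindle poles apart, read 6.78, 6.44 and 6.40 in untreated dishes, 6.67, 6.47 and 6.93 with heregulin, 7.48, 6.91 and 7.24 with AP1510 and 8.04, 8.18 and 8.14 with TGF-alpha. Heregulin replicate 3 stood just above AP1510 replicate 2, and the other heregulin arrays overlapped untreated. KIF11 changed by 0.67 ± 0.14 (adjusted p = 0.03) with AP1510 and 1.58 ± 0.14 (adjusted p = 4.7e-07) with TGF-alpha, and was -0.51 ± 0.14 with heregulin relative to AP1510 (adjusted p = 0.042). KIF14 (probe set 7923189), a kinesin of cytokinesis, read 5.64, 5.55 and 5.77 in untreated dishes, 6.06, 5.73 and 6.28 with heregulin, 6.51, 6.29 and 6.42 with AP1510 and 7.49, 7.32 and 7.46 with TGF-alpha. AP1510 overlapped no other group, but heregulin replicate 3 at 6.28 lay only just below AP1510 replicate 2 at 6.29. Heregulin replicate 2 lay inside the untreated range. KIF14 had the largest TGF-alpha change of the motors, 1.77 ± 0.12 (adjusted p = 2.7e-08), and 0.75 ± 0.12 (adjusted p = 0.0052) with AP1510.

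KIF20A (probe set 8108301), the midzone kinesin MKLP2, had the smallest TGF-alpha change of this role and was the only gene of the role to pass with heregulin. It read 7.78, 7.68 and 7.71 in untreated dishes, 8.15, 7.89 and 8.39 with heregulin, 8.59, 8.32 and 8.43 with AP1510 and 8.87, 8.96 and 8.97 with TGF-alpha. Heregulin replicate 3 lay among the AP1510 dishes. AP1510 stood closer to TGF-alpha than in any other gene but AURKB, at a difference of 0.48 ± 0.11 (adjusted p = 0.0046), against a median of 0.93 over the 53 genes. KIF20A changed by 0.42 ± 0.11 (adjusted p = 0.028) with heregulin, 0.72 ± 0.11 (adjusted p = 0.004) with AP1510 and 1.21 ± 0.11 (adjusted p = 5.5e-07) with TGF-alpha. KIF20B (probe set 7929078) stood at 5.69, 5.69 and 5.69 in untreated dishes, 6.25, 5.54 and 6.57 with heregulin, 6.73, 6.18 and 6.47 with AP1510 and 7.23, 7.15 and 7.45 with TGF-alpha. The untreated dishes were nearly equal, and the heregulin dishes had the widest spread of the 53 genes in any group. Neither the AP1510 difference of KIF20B (0.77 ± 0.19, adjusted p = 0.068) nor its heregulin difference (0.43 ± 0.19, adjusted p = 0.23) passed. KIF15, at 0.41 ± 0.11 (adjusted p = 0.082), and KIF23, the midzone kinesin MKLP1, at 0.54 ± 0.17 (adjusted p = 0.16), did not pass with AP1510. KIF14 and KIF20A kept their AP1510 calls whichever array was left out, and KIF4A, KIF11 and KIF18A each lost it in 4 of the 12 refits, with adjusted p up to 0.14, 0.16 and 0.095, without AP1510 replicate 1. The heregulin call of KIF20A ended in 5 refits, with adjusted p up to 0.13 without heregulin replicate 3.

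Spindle and cytokinesis genes rose with TGF-alpha in 11 of 11 cases, with a median change of 1.42. With AP1510 7 of 11 rose (median 0.60), and with heregulin 6 of 11 rose (median 0.41), TPX2, ASPM, NUSAP1, ANLN, PRC1 and CEP55. TPX2 (probe set 8061579), the activator of Aurora A on the spindle, read 7.69, 7.74 and 7.68 in untreated dishes, 8.23, 7.96 and 8.21 with heregulin, 8.47, 8.31 and 8.50 with AP1510 and 9.31, 9.44 and 9.59 with TGF-alpha. The 4 groups were fully separate, at 0.43 ± 0.10 (adjusted p = 0.012), 0.72 ± 0.10 (adjusted p = 0.0017) and 1.74 ± 0.10 (adjusted p = 3.8e-09) with heregulin, AP1510 and TGF-alpha. ASPM (probe set 7923086), a spindle pole protein, stood at 6.86, 6.83 and 6.84 in untreated dishes, 7.40, 7.18 and 7.69 with heregulin, 7.93, 7.13 and 7.60 with AP1510 and 8.22, 8.30 and 8.29 with TGF-alpha. The untreated dishes were nearly equal while the AP1510 dishes spread the widest of the 53 genes in that group, and heregulin overlapped AP1510. ASPM changed by 0.58 ± 0.16 (adjusted p = 0.03), 0.71 ± 0.16 (adjusted p = 0.034) and 1.42 ± 0.16 (adjusted p = 3.4e-06) in the same order.

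ANLN (probe set 8132318), which encodes anillin of the contractile ring, read 8.79, 8.57 and 8.76 in untreated dishes, 9.37, 9.0 and 9.52 with heregulin, 9.71, 9.37 and 9.45 with AP1510 and 10.46, 10.42 and 10.45 with TGF-alpha. All treated dishes lay above untreated, and heregulin and AP1510 overlapped. ANLN had the largest AP1510 change of the role and the largest heregulin change of all 53 genes, at 0.59 ± 0.12 (adjusted p = 0.0063) with heregulin, 0.81 ± 0.12 (adjusted p = 0.004) with AP1510 and 1.74 ± 0.12 (adjusted p = 3.7e-08) with TGF-alpha. CEP55 (probe set 7929334), of the midbody, read 6.63, 6.80 and 6.63 in untreated dishes, 7.13, 6.91 and 7.47 with heregulin, 7.63, 7.29 and 7.33 with AP1510 and 8.38, 8.50 and 8.56 with TGF-alpha. Heregulin replicate 3 lay among the AP1510 dishes and replicate 2 close to untreated. CEP55 had the largest TGF-alpha change of the role, 1.80 ± 0.13 (adjusted p = 3.9e-08), with 0.73 ± 0.13 (adjusted p = 0.0087) for AP1510 and 0.49 ± 0.13 (adjusted p = 0.026) for heregulin. PRC1, which bundles midzone microtubules, rose by 0.41 ± 0.11 (adjusted p = 0.025) with heregulin and 0.60 ± 0.11 (adjusted p = 0.01) with AP1510, with no overlap between untreated and treated dishes.

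DLGAP5 (probe set 7979307), a microtubule-binding spindle protein, read 7.23, 7.05 and 7.34 in untreated dishes, 7.56, 7.23 and 7.76 with heregulin, 8.03, 7.53 and 7.76 with AP1510 and 8.76, 8.82 and 8.83 with TGF-alpha. Heregulin bridged the untreated and AP1510 ranges. The AP1510 difference of 0.57 ± 0.14 just missed the threshold (adjusted p = 0.056), and its TGF-alpha change was 1.60 ± 0.14 (adjusted p = 2.4e-07). ECT2 (probe set 8083941), the exchange factor that turns on RhoA at the division plane, read 7.85, 7.75 and 7.87 in untreated dishes, 8.19, 7.95 and 8.24 with heregulin, 8.32, 7.85 and 8.11 with AP1510 and 8.84, 8.96 and 8.93 with TGF-alpha. AP1510 replicate 2 lay inside the untreated range, and the AP1510 difference was the smallest of the role (0.27 ± 0.11, adjusted p = 0.34), close to 0.31 ± 0.11 with heregulin (adjusted p = 0.12). The difference between heregulin and AP1510 was 0.03 ± 0.11 (adjusted p = 0.92, 95% interval -0.21 to 0.27).

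AURKB (probe set 8012403) and BIRC5 encode Aurora B and survivin, 2 subunits of the chromosomal passenger complex. AURKB read 7.07, 7.17 and 6.88 in untreated dishes, 7.01, 7.34 and 7.27 with heregulin, 7.46, 7.22 and 7.55 with AP1510 and 8.11, 7.91 and 7.65 with TGF-alpha. Its TGF-alpha dishes spread widely, with replicate 3 just above the highest AP1510 dish, and its TGF-alpha change of 0.85 ± 0.13 (adjusted p = 9.3e-05) was the smallest of all 53 genes. Neither AURKB (0.37 ± 0.13, adjusted p = 0.24) nor BIRC5 (0.35 ± 0.10, adjusted p = 0.094) passed with AP1510. AURKB was also the member that lost its call between TGF-alpha and AP1510, 0.48 ± 0.13 (adjusted p = 0.012) with all arrays, in 2 of the 12 refits, without AP1510 replicate 2 and without TGF-alpha replicate 1 (adjusted p up to 0.074 in the latter). With AP1510, TPX2 and ANLN kept their calls whichever array was left out, and CEP55, PRC1, NUSAP1, HMMR and ASPM lost it in 1, 2, 5, 5 and 8 of the 12 refits, with adjusted p up to 0.058, 0.063, 0.14, 0.17 and 0.16, without AP1510 replicate 1. With heregulin ANLN alone of the 6 kept its call, and the highest adjusted p-values of the other 5 were 0.053 to 0.13, all without heregulin replicate 3.

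Genes of chromosome structure rose with TGF-alpha in 6 of 6 cases, with a median change of 1.49. With AP1510 TOP2A, NCAPG, SMC2 and MKI67 rose (median over the 6 genes 0.59), and with heregulin MKI67 alone (median 0.28). MKI67 (probe set 7937020), which encodes Ki-67, the coat protein of mitotic chromosomes used as a proliferation marker, read 8.21, 8.21 and 8.18 in untreated dishes, 8.80, 8.55 and 8.76 with heregulin, 9.07, 8.86 and 9.11 with AP1510 and 9.95, 10.06 and 10.18 with TGF-alpha. The untreated dishes were nearly equal, no group overlapped another, and the AP1510 change was the largest of the 53 genes. Its changes were 0.50 ± 0.10 (adjusted p = 0.0031) with heregulin, 0.81 ± 0.10 (adjusted p = 0.00048) with AP1510 and 1.86 ± 0.10 (adjusted p = 1.9e-09) with TGF-alpha. TOP2A (probe set 8014974), the topoisomerase that untangles sister chromatids, stood at 8.30, 8.17 and 8.32 in untreated dishes, 8.64, 8.34 and 8.82 with heregulin, 9.04, 8.75 and 8.90 with AP1510 and 9.47, 9.44 and 9.48 with TGF-alpha. TOP2A changed by 0.63 ± 0.11 (adjusted p = 0.0099) with AP1510 and 1.20 ± 0.11 (adjusted p = 6.1e-07) with TGF-alpha, and its heregulin arrays lay above untreated but did not pass (0.33 ± 0.11, adjusted p = 0.086).

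NCAPG, NCAPH, SMC2 and SMC4 encode subunits of condensin, which compacts chromosomes. NCAPG (probe set 8094278) read 7.50, 7.66 and 7.72 in untreated dishes, 7.89, 7.56 and 8.15 with heregulin, 8.62, 8.04 and 8.18 with AP1510 and 9.40, 9.42 and 9.58 with TGF-alpha. AP1510 replicate 1 lay well above replicates 2 and 3, heregulin spread from the untreated range to that of AP1510, and the changes were 0.65 ± 0.15 (adjusted p = 0.042) with AP1510 and 1.84 ± 0.15 (adjusted p = 1.3e-07) with TGF-alpha. NCAPH (probe set 8043602) stood at 5.53, 6.05 and 5.69 in untreated dishes, 6.04, 5.99 and 6.18 with heregulin, 6.48, 6.01 and 6.03 with AP1510 and 7.39, 7.71 and 7.38 with TGF-alpha. Untreated replicate 2 exceeded AP1510 replicates 2 and 3, the AP1510 difference was the smallest of the role (0.41 ± 0.15, adjusted p = 0.24), and TGF-alpha exceeded AP1510 by 1.32 ± 0.15 (adjusted p = 5.7e-06), the largest such difference of the 53 genes.

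SMC4 (probe set 8083709) read 8.33, 8.01 and 8.18 in untreated dishes, 8.21, 7.66 and 8.24 with heregulin, 8.81, 8.65 and 8.62 with AP1510 and 9.15, 9.29 and 9.18 with TGF-alpha. It had the smallest TGF-alpha change of the role, 1.03 ± 0.13 (adjusted p = 1.9e-05), an AP1510 difference that did not pass (0.52 ± 0.13, adjusted p = 0.074) and a heregulin mean below untreated (-0.13 ± 0.13, adjusted p = 0.64), with heregulin replicate 2 lowest of all 12 arrays. Heregulin lay below AP1510 on every array, at -0.65 ± 0.13 (adjusted p = 0.0064), and this was the 1 call of that comparison that held whichever array was left out. Its partner SMC2 rose with AP1510 (0.55 ± 0.12, adjusted p = 0.03) and was at 0.20 ± 0.12 with heregulin (adjusted p = 0.39). MKI67 kept its AP1510 and heregulin calls in all 12 refits, while TOP2A, SMC2 and NCAPG lost their AP1510 call in 1, 6 and 9, with adjusted p up to 0.063, 0.15 and 0.2, without AP1510 replicate 1.

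FOXM1 and MYBL2, the transcription factors of the set, rose with TGF-alpha and with AP1510, and neither passed with heregulin. FOXM1 (probe set 7960340) read 7.53, 7.57 and 7.54 in untreated dishes, 7.80, 7.65 and 7.98 with heregulin, 8.35, 8.09 and 8.20 with AP1510 and 9.12, 9.27 and 9.38 with TGF-alpha. Its groups were fully separate, at 0.27 ± 0.10 (adjusted p = 0.14), 0.67 ± 0.10 (adjusted p = 0.004) and 1.71 ± 0.10 (adjusted p = 7.5e-09) with heregulin, AP1510 and TGF-alpha. MYBL2 (probe set 8062766), which encodes B-MYB, stood at 6.46, 6.42 and 6.18 in untreated dishes, 6.57, 6.49 and 6.67 with heregulin, 7.06, 6.94 and 6.95 with AP1510 and 8.09, 8.25 and 8.28 with TGF-alpha. MYBL2 was 0.22 ± 0.10 (adjusted p = 0.2), 0.63 ± 0.10 (adjusted p = 0.0037) and 1.85 ± 0.10 (adjusted p = 1.8e-09) in the same order, again with no overlap between groups. Both AP1510 calls held whichever array was left out. Both genes were lower with heregulin than with AP1510, at -0.40 ± 0.10 (adjusted p = 0.026) for FOXM1 and -0.41 ± 0.10 (adjusted p = 0.015) for MYBL2, and neither difference passed without heregulin replicate 2 (adjusted p = 0.1 and 0.057).

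Set directly against AP1510, TGF-alpha was higher for 53 of 53 genes, against 11.2% of all genes, by a median of 0.93 and at least 2-fold for 22 genes. The differences ran from 0.48 ± 0.13 for AURKB and 0.48 ± 0.11 for KIF20A to 1.32 ± 0.15 for NCAPH. Against TGF-alpha, heregulin was lower for 53 of 53, against 11.8%, by a median log2 difference of -1.20 that ran from -1.74 ± 0.20 for SPC25 to -0.51 ± 0.13 for CDC20. Heregulin was lower than AP1510 for 8 genes, against 3.95% called lower, with a median difference of -0.31, and 32 were lower at an unadjusted p under 0.05. None was higher in limma (3.27% of all genes were), at an unadjusted p under 0.05 either. The 8 were AURKA, CENPK, NDC80, SPC25, KIF11, SMC4, FOXM1 and MYBL2, of which AURKA differed by -0.46 ± 0.11 (adjusted p = 0.018). Without heregulin replicate 2 SMC4 alone passed, and the median difference shrank by over 1.5 times. In limma 0 of 8 checkpoint and anaphase genes and 0 of 11 spindle and cytokinesis genes passed, with 3 and 2 lower at an unadjusted p under 0.05. In roles of this size a count of 0 is near the background of 3.95% and is not a result about them. BUB1B stood at -0.15 ± 0.12 (adjusted p = 0.54) and ANLN at -0.22 ± 0.12 (adjusted p = 0.35). All 3 heregulin arrays lay below all 3 AP1510 arrays for 22 genes (11.4% of all genes).

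The single dishes of 1 group differed from each other in the same direction across most of the set. The median difference of the 53 genes from the untreated mean was 0.774, 0.426 and 0.550 on AP1510 replicates 1, 2 and 3. AP1510 replicate 1 was the highest of its group for 47 of the 53 genes, against 36.1% of all genes, and lay above the mean of the other 2 dishes for all 53, by a median of 0.24. Replicate 2 was the lowest for 39, against 34.2%. By role, replicate 1 stood at 0.720 for cyclins and kinases (replicates 2 and 3 at 0.393 and 0.415), 0.763 for checkpoint and anaphase genes (0.410 and 0.529), 0.865 for kinesin motors (0.372 and 0.696) and 0.809 for spindle and cytokinesis genes (0.415 and 0.552). Kinetochore genes differed least between the dishes, at 0.666, 0.485 and 0.633. The untreated dishes stood at 0.020, -0.055 and 0.023, so every AP1510 dish had a higher median than any untreated dish.

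Heregulin dishes spread further still, with medians of 0.303, 0.091 and 0.478 on replicates 1, 2 and 3. Heregulin replicate 2 was the lowest of its group for 48 of the 53 genes (38.1% of all genes) and replicate 3 the highest for 41 (26.1%). For kinetochore genes replicate 2 stood at -0.172, below the untreated mean, while for spindle and cytokinesis genes it stood at 0.251. TGF-alpha dishes stood at 1.42, 1.59 and 1.57, and replicate 1 was the lowest of its group for 39 of the 53 genes (40.2% of all genes). The median SD within a group was 0.111 for the members against 0.104 for all genes in untreated cells, 0.161 against 0.107 with AP1510, 0.111 against 0.0963 with TGF-alpha and 0.216 against 0.132 with heregulin. What set these dishes apart was not tested, and the labels give no batch.

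**Figure D4:**
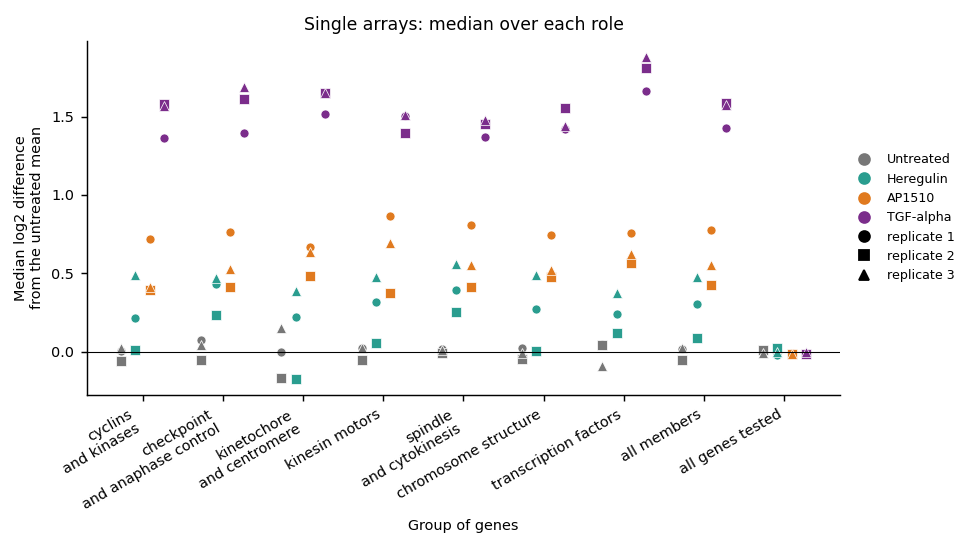
Median log2 difference from the untreated mean on each of the 12 arrays, for the genes of each role, for all 53 genes and for all genes tested, with colour for treatment and marker shape for replicate. In AP1510 (orange) replicate 1 is the highest point in every role, heregulin replicate 2 (green square) is the lowest green point in every role, and the points of all genes tested lie near 0.

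Without AP1510 replicate 1, 10 of the 53 genes rose, all among the 31, with a median change of 0.49: CCNA2, BUB1, CENPE, KIF14, KIF20A, TPX2, ANLN, MKI67, FOXM1 and MYBL2. These 10 also kept their AP1510 call whichever other array was left out. The count was 16 and 15 without untreated replicates 1 and 2. With heregulin, 3 genes rose without replicate 3, ANLN, CDC20 and MKI67, 20 without replicate 2, 7 without replicate 1, and 6, 7 and 8 without untreated replicates 1, 2 and 3. The heregulin median over the 53 genes was 0.39 without heregulin replicate 2 and 0.19 without replicate 3, against 0.28 with all arrays. Without replicate 3 the median was 0.10 for cyclins and kinases and 0.16 for chromosome structure. Leaving out heregulin replicate 2 or 3 moved no other role median with heregulin by over 1.5 times, apart from the kinetochore genes above, and leaving out AP1510 replicate 1 moved none with AP1510. Without heregulin replicate 2, 3 kinesin motors, 3 cyclins and kinases and 2 genes of chromosome structure rose with heregulin. Heregulin was lower than AP1510 for 1 gene without heregulin replicate 2, 18 without heregulin replicate 3, 2 without AP1510 replicate 1 and 5 without AP1510 replicate 3. The TGF-alpha counts against untreated and heregulin were 53 whichever array was left out, and that against AP1510 was 52 or 53.

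Further genes of cell division were taken from 6 lists, with 119 measured of 121 listed. For these lists the background is the share of all genes tested, of which 12.5% rose and 13.4% fell with TGF-alpha, 0.771% rose with AP1510, and 3.45% rose and 5.06% fell with heregulin. Of 31 other kinetochore and checkpoint genes, 24 rose with TGF-alpha, 8 with AP1510 and 1 with heregulin, where 1 fell, with median changes of 0.92, 0.33 and 0.13. The heregulin counts of 1 in each direction are near the background and are not a result about the list. SKA1, of the complex that couples kinetochores to microtubules, had the highest TGF-alpha change, 2.17 ± 0.17 (adjusted p = 1e-07), and CENPT, of the inner kinetochore, the lowest, -0.18 ± 0.10 (adjusted p = 0.24). KNL1, the checkpoint scaffold (0.68 ± 0.15, adjusted p = 0.038), CDCA8, a passenger complex subunit (0.65 ± 0.11, adjusted p = 0.0078), and SPC24, the partner of SPC25 (0.50 ± 0.10, adjusted p = 0.018), rose most with AP1510, of which KNL1 and SPC24 did not pass without AP1510 replicate 1 (adjusted p = 0.19 and 0.11). ZWINT, a kinetochore protein, rose with heregulin (0.38 ± 0.09, adjusted p = 0.015) and MIS12, of the kinetochore base, fell (-0.44 ± 0.10, adjusted p = 0.0087), and neither passed without untreated replicate 3 (adjusted p = 0.07 and 0.054).

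Of 26 other spindle, cytokinesis and condensin genes, 23 rose with TGF-alpha, 7 with AP1510 and 2 with heregulin, where 1 fell. The 1 that fell is near the background. CKAP2L, a spindle protein, had the highest TGF-alpha change, 1.85 ± 0.12 (adjusted p = 1.7e-08), and KIF3A, a transport kinesin, the lowest, -0.38 ± 0.14 (adjusted p = 0.053). DEPDC1 (0.73 ± 0.10, adjusted p = 0.0015), DEPDC1B (0.65 ± 0.13, adjusted p = 0.024) and ARHGAP11A (0.62 ± 0.15, adjusted p = 0.047) rose most with AP1510, and only DEPDC1 of these passed without AP1510 replicate 1. KIF3A was the gene that fell with heregulin (-0.56 ± 0.14, adjusted p = 0.015), not so without untreated replicate 1 (adjusted p = 0.088).

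Of 18 other regulators of mitotic entry and exit, 16 rose and 1 fell with TGF-alpha, 4 rose with AP1510 and 3 with heregulin. The 1 that fell is below the background share of 13.4% and is not a result about the list. CDCA5, which encodes sororin, the stabiliser of cohesin, was at the top with 1.99 ± 0.10 (adjusted p = 1.4e-09) and also rose with heregulin (0.35 ± 0.10, adjusted p = 0.037) and AP1510 (0.58 ± 0.10, adjusted p = 0.0069). WEE1, the kinase that inhibits CDK1, was at the bottom with -1.54 ± 0.29 (adjusted p = 0.00071), and did not pass with AP1510 (-1.04 ± 0.29, adjusted p = 0.11) or heregulin (-0.93 ± 0.29, adjusted p = 0.065). It was read by the brightest of 3 probe sets that named it alone, and its AP1510 dishes spread widely, at 7.45, 8.07 and 8.81. UBE2C, the ubiquitin-conjugating enzyme of the anaphase-promoting complex (0.48 ± 0.09, adjusted p = 0.011), and MASTL, the Greatwall kinase (0.47 ± 0.09, adjusted p = 0.011), followed CDCA5 with AP1510. UBE2C did not pass without AP1510 replicate 1 (adjusted p = 0.071), MASTL without untreated replicate 1 (adjusted p = 0.067) and CDCA5 with heregulin without untreated replicate 2 (adjusted p = 0.14).

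Median changes were smaller for the anaphase-promoting complex and cohesin. Of 15 subunits of the anaphase-promoting complex, 5 rose and 2 fell with TGF-alpha, and 0 passed with AP1510 or heregulin in limma (1 and 2 at an unadjusted p under 0.05), with median changes of 0.22, 0.05 and -0.05 for TGF-alpha, AP1510 and heregulin. The 2 that fell are at the background share of 13.4%, so they are not a result about the complex. In a list of this size, counts of 0 with AP1510 and heregulin are near the background too and are not such a result either. ANAPC1 was highest with TGF-alpha (0.88 ± 0.10, adjusted p = 3.4e-06) and ANAPC16 lowest (-0.31 ± 0.10, adjusted p = 0.036), a call that ended without TGF-alpha replicate 1 (adjusted p = 0.11). Of 10 cohesin core and loader genes, 4 rose with TGF-alpha (median 0.11), 0 passed with AP1510 in limma (0 also at an unadjusted p under 0.05) and 1, STAG2, fell with heregulin (-0.40 ± 0.09, adjusted p = 0.013). Of 19 MuvB, DREAM and E2F factors, 10 rose and 2 fell with TGF-alpha (median 0.35), E2F7 alone rose with AP1510 (0.46 ± 0.09, adjusted p = 0.011), and MYBL1 alone passed with heregulin, at -0.55 ± 0.13 (adjusted p = 0.012), although it rose with TGF-alpha (1.04 ± 0.13, adjusted p = 1e-05). The 2 that fell with TGF-alpha, the 1 that fell with heregulin and STAG2 in cohesin are near or below what the background shares give in lists of this size. The count of 0 for cohesin with AP1510 is near the background as well. RBL1, which encodes the pocket protein p107, was highest with TGF-alpha (1.45 ± 0.12, adjusted p = 1.6e-07) and TFDP2, a partner of E2F, lowest (-0.37 ± 0.12, adjusted p = 0.032). TFDP2 did not pass without untreated replicate 3 (adjusted p = 0.13). E2F7 did not pass without AP1510 replicate 1 (adjusted p = 0.063), nor MYBL1 and STAG2 with heregulin without untreated replicate 3 (adjusted p = 0.065 and 0.052).

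**Figure D5:**
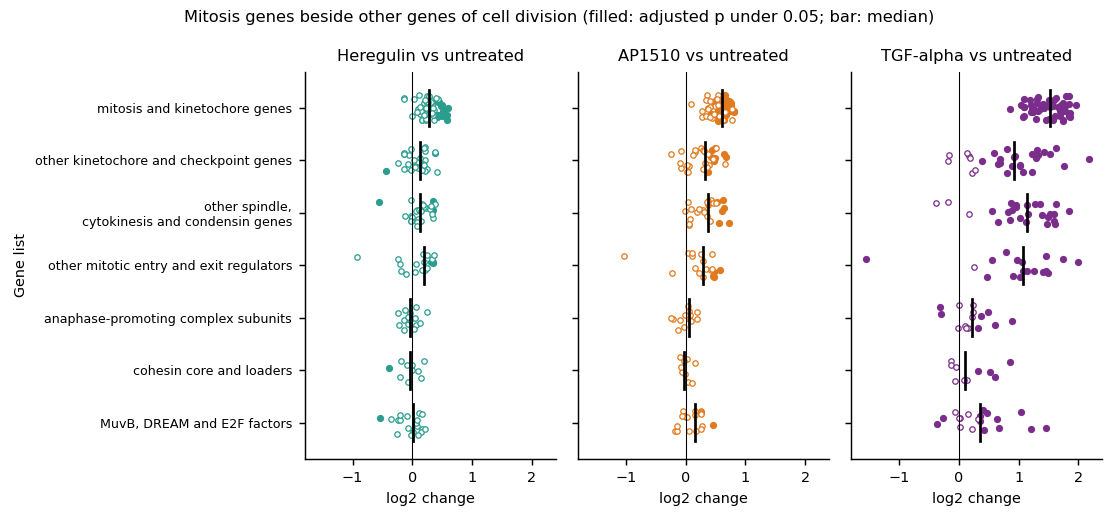
Log2 change of each gene against untreated cells in the mitosis set and in 6 lists of other cell division genes, 1 panel per treatment, with filled points for an adjusted p under 0.05 and a bar at the median. In the TGF-alpha panel the median falls from 1.52 in the mitosis set to 0.22 for the anaphase-promoting complex and 0.11 for cohesin.

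Promoter letters were counted in these lists too. CHR letters stood in 17 of 28 promoters of the other spindle, cytokinesis and condensin genes (60.7%) and 13 of 30 of the other kinetochore and checkpoint genes (43.3%). They stood in 9 of 21 of the other regulators of mitotic entry and exit (42.9%) and 8 of 25 of the MuvB, DREAM and E2F factors (32.0%). The counts were 4 of 27 for the anaphase-promoting complex (14.8%) and 2 of 12 for cohesin, against 16.4% of all promoters. Among measured members with a promoter in the table, 34 had CHR letters and 13 had none. Their median changes were 1.52 and 1.45 with TGF-alpha, 0.60 and 0.51 with AP1510, and 0.29 in both with heregulin. CENPK without CHR letters and SMC4 with a CHR were both below untreated with heregulin, at -0.14 ± 0.10 and -0.13 ± 0.13, neither of which passed.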

How the data were processed

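RNA from 12 dishes was biotin-labelled and hybridised to Affymetrix arrays, 3 per group. The values are log2 intensities that the authors deposited after RMA (background correction, quantile normalization and probe-set summary), per the submitters' processing notes, with no version stated. Of 33297 probe sets, 19460 named 1 gene, 1754 several and 12083 none; for 769 genes with several, the one with the highest mean was used. limma 3.58.1 in R 4.3.3 fitted 1 mean per group over all 12 arrays (8 residual degrees of freedom), with 6 contrasts and Benjamini-Hochberg adjustment over 18417 genes at 0.05, two-sided, and was tested on simulated data. Errors are SEs of that fit with 3 arrays a group, and intervals are 95%. Genes given in full were the first 3 of each role, MKI67, and those with the highest and lowest TGF-alpha or AP1510 change, with CDK1, PLK1 and NDC80 added after their values were seen. Of each related list, the highest and lowest TGF-alpha changes and up to 3 genes called with AP1510 were named by rule, and others by their heregulin calls. The members and lists were chosen with earlier results of these data known. Replicate numbers follow accession order and name dishes only. The alternatives tried were another normalization, filter, summary of probe sets, weighting, prior and sample set, and each array left out.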

Additional observations from a re-analysis of the deposited data

How the results depend on the processing

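No paired analysis was possible because the labels share no replicate number between groups. With each array left out in turn, the genes higher with AP1510 numbered 10 to 39 of 53, those higher with heregulin 3 to 20, those lower with heregulin than with AP1510 1 to 18, and those higher with TGF-alpha than with AP1510 52 to 53; the other TGF-alpha counts and the F test stayed at 53. The heregulin count was 38 with array quality weights, which weighted replicate 3 at 4.62 and replicates 1 and 2 at 0.584 and 0.322, and 7 in a fit of only the 2 groups compared. The count lower with heregulin than with AP1510 was 13 of the 51 genes left without dim genes and 2 in a fit of only the 2 groups. The cause of these shifts was not tested. Under the other settings, the AP1510 count was 28 to 38. Changes that turned sign were all in genes that had not passed. Against untreated cells and over the left-out arrays, ESPL1 ranged from -0.0162 to 0.1999 with AP1510, and with heregulin AURKA ranged from -0.0475 to 0.1136, CCNB2 from -0.0343 to 0.2556, NUF2 from -0.0121 to 0.1916, SMC4 from -0.2351 to 0.0539 and SPC25 from -0.1951 to 0.253. Between heregulin and AP1510, ASPM ranged from -0.3388 to 0.0587, ECT2 from -0.0885 to 0.1442, MELK from -0.2095 to 0.0038 and NCAPH from -0.1857 to 0.0502. Array weights turned SPC25 with heregulin to 0.2954, and between heregulin and AP1510 turned ASPM to 0.1131, CEP55 to 0.0095, KIF20B to 0.0441, MELK to 0.0522, NCAPH to 0.0148, NUSAP1 to 0.0182 and PLK1 to 0.0201. With 3 arrays a group, the number of arrays limits the precision, and RMA gives no true zero, so low levels have no detection limit here.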
